A study of Mus musculus with 6 samples.

Results

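The nuclear-encoded mRNAs for subunits of cytochrome c oxidase were followed in libraries that read the poly(A) tails of naive CD4 T cells. The 10 genes were chosen by their gene identifiers, by a rule that used no measured value: Cox4i1 (ENSMUSG00000031818), Cox5a (ENSMUSG00000000088), Cox5b (ENSMUSG00000061518), Cox6a1 (ENSMUSG00000041697), Cox6b1 (ENSMUSG00000036751), Cox6c (ENSMUSG00000014313), Cox7a2 (ENSMUSG00000032330), Cox7b (ENSMUSG00000031231), Cox7c (ENSMUSG00000017778) and Cox8a (ENSMUSG00000035885). Earlier results of these data were known when the rule was set. They are 10 of the gene identifiers (IDs) measured in the series, of which 7282 were linked to at least 1 tag and 6469 to a tag with a tail. The 10 gave 102 tags in all, 101 of them with a tail, among 84157 tailed tags linked to a gene.

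Cytochrome c oxidase is complex IV of the mitochondrial respiratory chain. It takes electrons from cytochrome c, passes them to oxygen and pumps protons across the inner membrane. Its catalytic core is made of subunits encoded in mitochondrial DNA, whereas the surrounding subunits described here are encoded in the nucleus, made in the cytosol and imported. Their mRNAs are short, abundant in most tissues and carry poly(A) tails, which bind poly(A)-binding protein and are shortened by deadenylases before the mRNA decays.

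In mTAIL-seq a hairpin adaptor is joined to the 3′ ends of RNA, which is then fragmented and captured so that sequencing covers the end of a transcript and its tail. A tag is a group of reads from such an end, so a level in tags counts 3′ ends and not fragments along the mRNA. Naive CD4 T cells were sorted by flow cytometry as TCRb+ CD4+ CD25-, high for CD62L and low for CD44. The WT group were littermate controls with floxed Btg1 and Btg2 (Btg1 f/f Btg2 f/f), and the DKO group had the same floxed alleles with CD4-Cre. Both groups thus carried the floxed alleles, and deletion in DKO followed the activity of CD4-Cre, which is expressed in developing and mature T cells. BTG1 and BTG2 bind the CCR4-NOT deadenylase. Each genotype had 3 libraries. The labels state no ages and mention pairs of mice without saying which libraries share animals, so every p-value here reflects library-to-library spread that may be technical in part. In bulk samples, fewer cells of a type and less RNA per cell cannot be told apart.

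The libraries held 3943 to 24024 tailed, gene-linked tags, where a tail means at least 5 nt. The libraries numbered 3 stood apart in both genotypes: 32.3% (WT) and 35.3% (DKO) of their mapped tags had a tail under 5 nt, against 7.95% to 9.94% in the others. They were also the shallowest. Results are therefore given by library, and within the same replicate number where that matters.

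Tags were found for 8 of the 10 subunits. Cox5b, the zinc-binding subunit, and Cox7c, which spans the inner membrane, had 0 tags in all 6 libraries. A count of 0 among 84157 tags allows up to 0.356 per 10000 gene-linked tags, where the limit is 3 counts. Such limits, and the intervals below, cover counting error only. They apply to linked tags, and at most 28.3% of the mapped tags of a library were linked to a gene ID, so a 0 here does not show that the mRNA was scarce; whether its tags are among the unlinked ones was not tested. Cox5a, which faces the matrix, had 1 tag, in DKO replicate 3. Cox7b, a small membrane subunit, had 2 tags, both in DKO replicate 1. With so few tags no order between genotypes can be read for these 4 genes.

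Cox6c had the most tags, 32 with a tail, and ranked 304 among the 6469 IDs by summed tailed tags. This subunit is a small single-pass membrane protein. Its tailed tags numbered 2, 3 and 3 in the WT libraries, against 11, 11 and 2 in DKO. Per 10000 tailed, gene-linked tags, the level of Cox6c was 1.18 in WT replicate 1, with a 95% exact (Clopper-Pearson) interval of 0.143 to 4.26. It was 2.63 (0.543 to 7.70) in WT replicate 2 and 4.18 (0.862 to 12.2) in WT replicate 3. The DKO levels were 5.32 (2.66 to 9.52), 4.58 (2.29 to 8.19) and 5.07 (0.614 to 18.3) per 10000. All 3 DKO libraries lay above all 3 WT libraries, but the intervals of single libraries overlapped. The same order held for 27 of the 223 IDs that had 2 or more tailed tags in all libraries (12.1%). The group means were 2.66 ± 1.50 in WT and 4.99 ± 0.378 in DKO (tags per 10000, SD, n = 3).

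Cox7a2 and Cox6a1 followed. Cox7a2, the widely expressed form of subunit VIIa, gave 5, 2 and 2 tags in the WT libraries, against 5, 3 and 3 in DKO. Its level was 2.50 ± 0.647 per 10000 in WT and 3.76 ± 3.38 in DKO (SD, n = 3), with the highest value, 7.61, in DKO replicate 3 from 3 tags. The genotypes overlapped.

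Cox6a1, the widely expressed form of subunit VIa, gave 6, 5 and 0 tags in the WT libraries, against 8, 0 and 0 in DKO. It was thus seen in 3 of 6 libraries and not in either library numbered 3. The level was 3.87 per 10000 (95% exact interval 1.67 to 7.62) in DKO replicate 1, whereas 0 of 24024 tags in DKO replicate 2 has an exact interval up to 1.54 per 10000. The intervals of these 2 libraries did not overlap, and DKO replicate 2 was the deepest library.

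Cox4i1, the largest of the nuclear subunits, had 3, 4 and 0 tags in the WT libraries, against 2, 2 and 2 in DKO. Cox6b1, which faces the intermembrane space, had 3, 0 and 1 in WT and 1 in each DKO library. Cox8a, another small membrane subunit, had 1 tag in each WT library and 2, 2 and 0 in DKO. For each of these the genotypes overlapped.

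**Figure D1:**
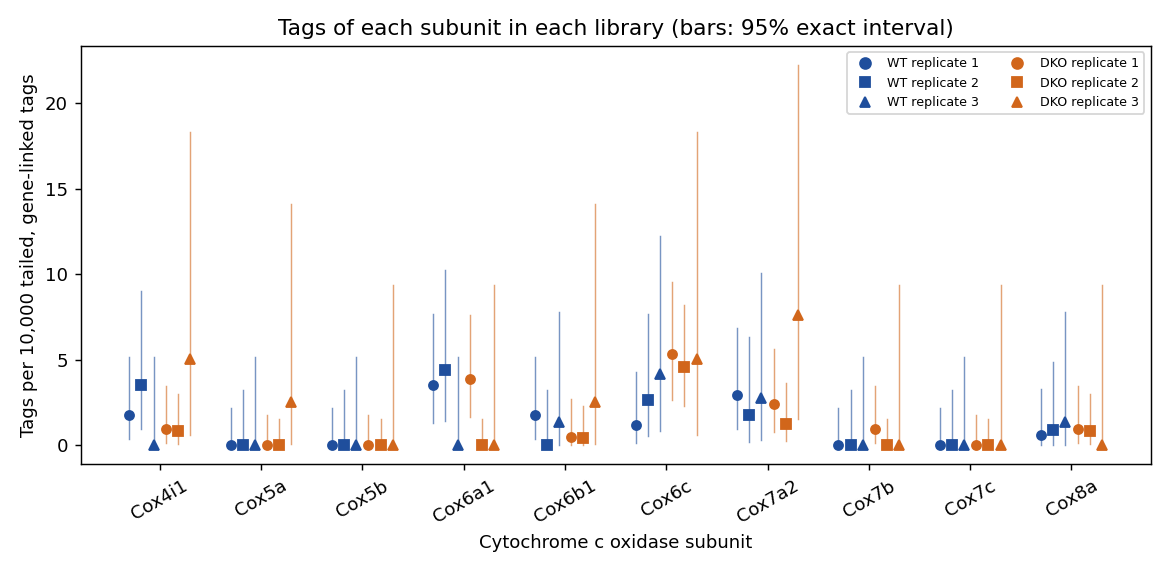
Level of each of the 10 subunit mRNAs in each library, as tags per 10000 tailed, gene-linked tags (vertical axis, linear), with 95% exact intervals as bars; blue is WT, orange is DKO, and the marker gives the replicate number. Cox6c is the subunit in which the DKO points, 4.58 to 5.32, all lie above the WT points, 1.18 to 4.18, with overlapping intervals.

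The test for a difference in tag count between genotypes could not be applied to these genes with its usual filter. edgeR's filter on low counts kept 170 IDs, and 0 of the 10 subunits were among them. Of the 170 IDs, 0 were called (0%) at an adjusted p of 0.05, with 13 at an unadjusted p under 0.05. Without the filter, 6469 IDs were tested, among them the 8 subunits with a tag. In that fit 0 of 8 subunits were called, beside 0 of all IDs (0%), with 154 IDs at an unadjusted p under 0.05. DESeq2 also called 0, with 17 IDs at an unadjusted p under 0.05. These results do not show that the levels were alike.

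Cox6c had a log2 change (DKO over WT) of 1.11 (SE 0.80) and an edgeR adjusted p of 0.64 in the unfiltered fit, with a median of 0.54 over all 6469 IDs. That median depended on the filter: over the 170 IDs of the filtered fit it was -0.052, with 45.9% positive. The level of Cox6c per 10000 was higher in DKO in 3 of 3 same-numbered pairs, and its raw tag count in 2 of 3. Of the 8 subunits, 5 had a positive log2 change (62.5%), against 62.1% of all IDs. Those 5 include Cox5a and Cox7b, which had 0 tags in WT, and Cox7a2 and Cox8a, whose log2 changes of 0.01 and 0.02 turned negative with library totals as the only scaling. With that scaling, with RLE size factors or with DESeq2, 3 of the 8 were positive (37.5%), against 61.0%, 57.6% and 57.5% of all IDs. The median over all IDs was 0.29 with RLE size factors, where Cox6c stood at 0.85, and 0.48 with library totals, where it stood at 1.07. With the libraries numbered 1 and 2 only, Cox6c had a log2 change of 1.52, with an unadjusted p of 0.044 and an edgeR adjusted p of 0.83. Cox6a1 had a log2 change of -0.78. Without DKO replicate 1, which held all its DKO tags, the value was -4.97, with an unadjusted p of 0.0073 and an edgeR adjusted p of 0.72; as both remaining DKO libraries were at 0, that value is no measure of size.

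Summed over the 10 genes, the subunits took 0.118%, 0.132% and 0.0975% of tailed, gene-linked tags in WT and 0.150%, 0.0791% and 0.228% in DKO. DKO replicate 2, the deepest library, was the lowest, and DKO replicate 3, the shallowest, the highest. The mean difference (DKO minus WT) of 0.0367 percentage points was smaller than the DKO spread of 0.0746 (SD, n = 3). It was -0.00123 without DKO replicate 3 and 0.0734 without DKO replicate 2.

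The deposited files list a string of tail letters beside the length of a tag, and the strings of the subunits were almost wholly runs of A. Capitals mark letters other than A, in the order the files give them and with T for U. These 5 strings were chosen to show tails near the short end and the strings that begin with another base.
Cox6b1, WT replicate 1: aaaaaaaaaaaaaaaaaaa
Cox6a1, DKO replicate 1, the shorter: aaaaaaaaaaaaaaaaaaaaaaaaa
Cox6a1, DKO replicate 1, the longer: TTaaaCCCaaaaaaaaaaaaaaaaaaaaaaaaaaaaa
Cox6a1, WT replicate 2: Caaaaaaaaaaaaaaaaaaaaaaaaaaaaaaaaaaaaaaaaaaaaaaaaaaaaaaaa
Cox6c, DKO replicate 1: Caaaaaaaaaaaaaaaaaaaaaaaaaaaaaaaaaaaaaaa

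The tail of Cox6b1 in WT replicate 1 was 19 nt, from 10 reads, and the shorter one of Cox6a1 was 25 nt, from 1 read. The longer Cox6a1 string held 37 letters, 5 of them not A, and was listed at 30 nt once mapping was taken into account. A string was listed for 99 of the 101 tailed tags, of at most 100 letters. Many strings held less than the listed tail: 41 of the 101 were as long as the tail length before mapping, 59 were shorter and 1 was longer. Of the 59, 36 were under 100 letters, such as the Cox6a1 tail of 173 nt in WT replicate 2 with 1 letter, so the letters of these tails were listed in part only. Letters other than A occurred in 4 strings, at the first position in 3 and further in only in 1.

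The 2 lengths that the files list for a tag, before and after mapping, were equal for 70 of the 101 tags and within 5 nt for 93. The largest gap was 17 nt. Of the 101 tags, 44 rested on a single read and the median was 2 reads. None of them was linked to a second gene ID.

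Across all libraries the tails of the subunits ran from 19 to 218 nt with a median of 79 nt. Tails under 30 nt came from 2 genes, with 3 on Cox6a1 and 1 on Cox6b1. Tails of 150 nt or more numbered 6, of which 4 were on Cox6c, 1 on Cox6a1 and 1 on Cox7b.

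**Figure D2:**
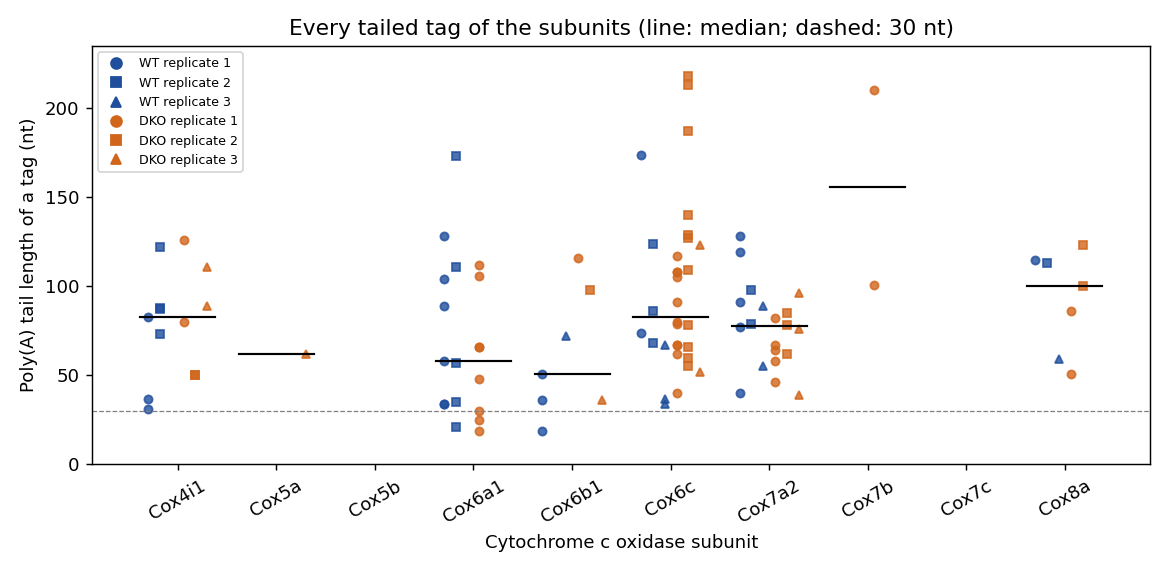
Poly(A) tail length in nt (vertical axis) of each tailed tag of the 10 subunits (horizontal axis), with the median per subunit as a black line and 30 nt as a dashed line; blue is WT, orange is DKO, and the marker gives the replicate number. Points below the dashed line belong to Cox6a1 and Cox6b1, and Cox5b and Cox7c have no point.

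Cox6c tails measured 74 and 174 nt in WT replicate 1, 68, 86 and 124 nt in WT replicate 2, and 34, 37 and 67 nt in WT replicate 3. In DKO replicate 1 they ran from 40 to 117 nt with a median of 80 nt over 11 tags. In DKO replicate 2 they ran from 55 to 218 nt with a median of 127 nt over 11 tags. DKO replicate 3 had tails of 52 and 123 nt. The library means were 84.0, 126 and 87.5 nt in DKO and 124, 92.7 and 46.0 nt in WT, so the genotypes overlapped.

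Cox7a2 tails were more even. They measured 40, 77, 91, 119 and 128 nt in WT replicate 1, 79 and 98 nt in WT replicate 2, and 55 and 89 nt in WT replicate 3. In DKO they were 46, 58, 64, 67 and 82 nt in replicate 1, 62, 78 and 85 nt in replicate 2, and 39, 76 and 96 nt in replicate 3. The library means for WT were 91.0, 88.5 and 72.0 nt. Those for DKO were 63.4, 75.0 and 70.3 nt, with overlap.

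**Figure D3:**
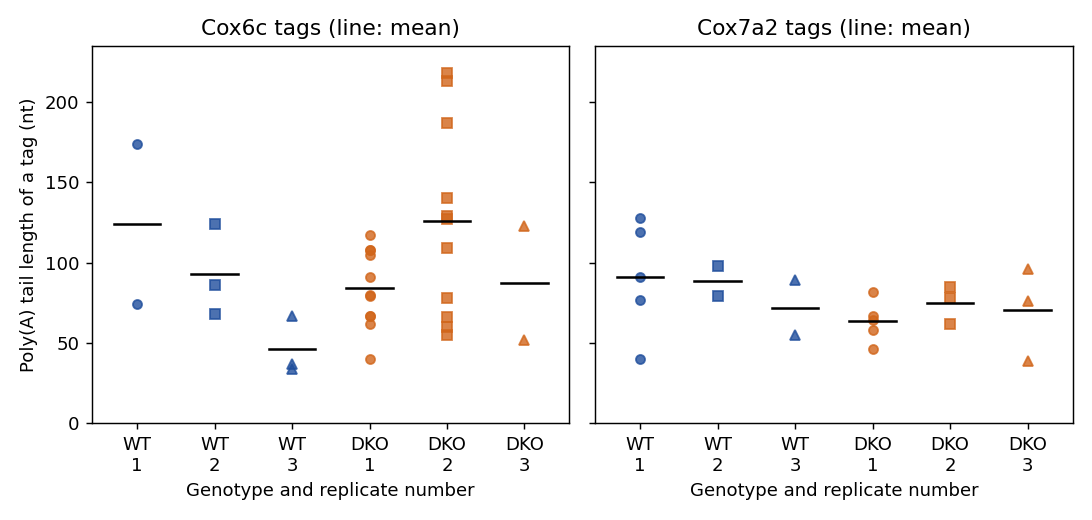
Tail length in nt (vertical axis) of each Cox6c tag (left) and Cox7a2 tag (right) by library (horizontal axis), with the mean as a black line. Cox6c means run from 46.0 to 126 nt, and Cox7a2 means from 63.4 to 91.0 nt.

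Cox6a1 tails were spread widely within a library, from 34 to 128 nt in WT replicate 1, 21 to 173 nt in WT replicate 2 and 19 to 112 nt in DKO replicate 1. Its means were 74.5, 79.4 and 59.0 nt in those libraries. Cox4i1 tails were 31, 37 and 83 nt in WT replicate 1 and 73, 87, 88 and 122 nt in WT replicate 2. In DKO, Cox4i1 had tails of 80 and 126 nt in replicate 1, 50 nt on both tags in replicate 2, and 89 and 111 nt in replicate 3. Neither gene separated the genotypes.

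Cox6b1 tails were 19, 36 and 51 nt in WT replicate 1 and 72 nt in WT replicate 3. In DKO they were 116, 98 and 36 nt in replicates 1, 2 and 3. Cox8a tails were 115, 113 and 59 nt in WT, 51 and 86 nt in DKO replicate 1, and 100 and 123 nt in DKO replicate 2. The single Cox5a tail was 62 nt and the Cox7b tails were 101 and 210 nt.

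Ordered by the mean of library means, Cox8a stood at 93.4 nt ± 27.3 (SD, n = 5 libraries) and Cox6c at 93.3 nt ± 29.5 (SD, n = 6). Cox4i1 followed at 79.2 nt ± 26.7 (SD, n = 5) and Cox7a2 at 76.7 nt ± 10.8 (SD, n = 6). Cox6b1 was at 71.5 nt ± 36.2 (SD, n = 5) and Cox6a1 at 71.0 nt ± 10.6 (SD, n = 3). The steps between neighbours, 0.0995 to 14.1 nt, did not exceed the spread over libraries of both neighbours at any place in the order. The means also cover different libraries. Cox4i1 and Cox6a1 had no tag in WT replicate 3, where the other tags had a mean of 48.3 nt. Cox6a1 also had none in DKO replicates 2 and 3, Cox6b1 none in WT replicate 2 and Cox8a none in DKO replicate 3. Each library mean of Cox8a rests on 1 or 2 tags.

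The planned comparison of subunits within libraries asked for 5 tags of each in every library, which 0 subunits had. At a minimum of 2 tags, chosen after seeing the data, Cox6c and Cox7a2 made the 1 possible pair. Cox6c tails were longer by 16.6 nt ± 26.1 (SD, n = 6 libraries), in 5 of 6 libraries. An exact sign-flip permutation test gave a two-sided p of 0.22, where the smallest possible is 0.031. In WT replicate 3 the order was opposite, by -26.0 nt.

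Tail length was compared between genotypes with limma on log2 mean tail length per ID. At the minimum of 10 tailed tags in every library, 44 IDs were tested, 0 were called (0%), 2 had an unadjusted p under 0.05, and 0 of the 10 subunits were among those tested. At a minimum of 2 tags, 223 IDs were tested, including Cox6c and Cox7a2. Of these 0 were called (0%), with 3 at an unadjusted p under 0.05.

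Cox6c had a log2 change in mean tail length of 0.27 (SE 0.37, limma adjusted p = 0.95). It was positive in 2 of 3 same-numbered pairs, and turned to -0.14 without WT replicate 3 and to -0.061 with numbers 1 and 2 only. Cox7a2 had a log2 change of -0.26 (SE 0.18, limma adjusted p = 0.95), with shorter means in DKO in 3 of 3 same-numbered pairs. Its change stayed below 0 in all 14 alternative fits, at -0.41 to -0.20, and did not pass the threshold in any. The median over the 223 IDs was 0.10, and 74.0% were positive, but this balance turned with the setting. With each library centred on its median, 37.7% of IDs were positive and the median was -0.047, while Cox6c stood at 0.12 and Cox7a2 at -0.41. In that limma fit Cox7a2 had an unadjusted p of 0.030 and an adjusted p of 0.91. Without WT replicate 3, 42.0% of IDs were positive.

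Over all subunit tags of a library, the mean WT tail was 76.1, 89.0 and 59.0 nt. The mean DKO tail was 80.1, 107 and 76.0 nt. The group means were 74.7 nt ± 15.0 and 87.6 nt ± 16.7 (SD, n = 3). DKO was higher in 3 of 3 same-numbered pairs, by 4.0, 17.7 and 17.0 nt, while the mean difference of 12.9 nt did not exceed either SD. That count depends on the numbering, which the labels do not tie to shared animals: DKO replicate 1, at 80.1 nt, lay below WT replicate 2, at 89.0 nt. All other tags differed between genotypes by 6.25 nt, and by -2.46, 8.63 and 12.6 nt within numbers 1, 2 and 3. The excess of the subunit mean over that of the other tags was larger in DKO in 3 of 3 same-numbered pairs, by 6.46, 9.11 and 4.41 nt. For medians it was larger by 1.5, 3.0 and 6.0 nt. The genotypes overlapped in this excess, which for means was 1.39 to 18.7 nt in WT and 7.85 to 27.8 nt in DKO.

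The pooled difference rested largely on Cox6c. Without its tags the difference between genotypes was 1.27 nt, below the 6.25 nt of all other tags. With Cox6c and Cox7a2 weighted equally, as the 2 genes with at least 2 tags in every library, the difference was -1.38 nt. Cox6c made up 11 of the 19 subunit tags in DKO replicate 2. Leaving out that library gave 3.35 nt, leaving out WT replicate 3 gave 5.06 nt, and leaving out WT replicate 2 gave 20.1 nt.

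Within each library the median tail of the subunits was longer than that of all other tailed, gene-linked tags. The medians were 75.5, 87 and 59 nt for the subunits in WT against 64, 61 and 45 nt for the other tags. In DKO they were 79, 98 and 76 nt against 66, 69 and 56 nt. The subunit median was thus higher in 6 of 6 libraries, by 11.5 to 29 nt, including both libraries numbered 3. No p is given, since this is a value over a chosen list of genes.

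The means gave the same order with smaller gaps, 1.39 to 27.8 nt. With each gene ID counted once, the median over subunits exceeded the median over other IDs in 6 of 6 libraries, by 8.33 to 23.5 nt. Without the 10 most-tagged IDs among the other tags, the medians were still higher in 6 of 6 libraries, by 8.5 to 26 nt. The mean was then lower in WT replicate 1, with a difference (subunits minus other tags) of -2.82 nt. Without Cox6c the median was higher by 0.5 to 26.5 nt in 6 of 6 libraries, and the mean lower in WT replicate 1, with a difference of -3.93 nt. Among tags of at least 2 reads the mean was higher in 5 of 6 libraries, with -9.11 nt in WT replicate 1.

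**Figure D4:**
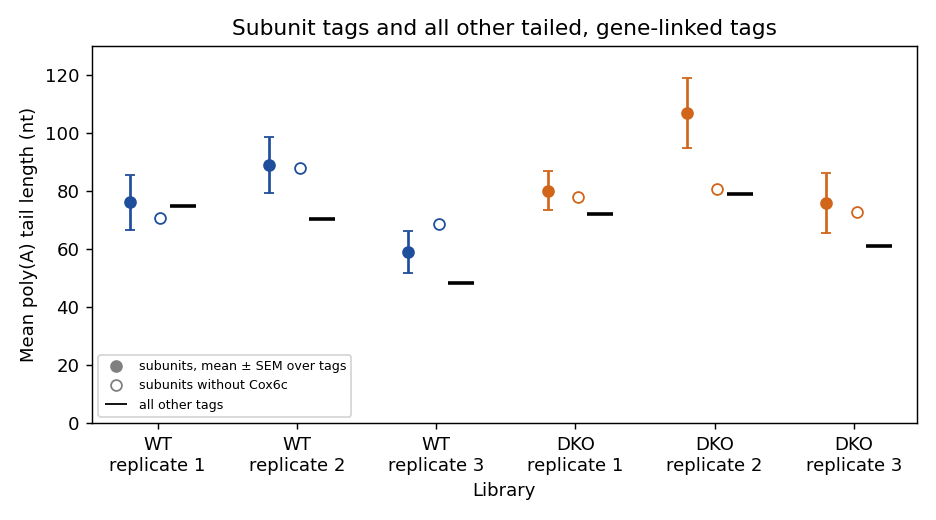
Mean tail length in nt (vertical axis, from 0) in each library (horizontal axis) for all subunit tags (filled, with the standard error over tags), for subunit tags without Cox6c (open) and for all other tailed, gene-linked tags (black dash). The filled points lie above the dashes in 6 of 6 libraries, and in DKO replicate 2 the filled point, 107 nt, lies above the open one, 80.8 nt.

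Short tails were few. Tails under 30 nt made up 1 of 20, 1 of 15 and 0 of 7 subunit tags in WT and 2 of 31, 0 of 19 and 0 of 9 in DKO. The other tags had 9.77%, 10.9% and 25.3% under 30 nt in WT and 8.71%, 7.80% and 15.5% in DKO. At this limit of 30 nt the subunit share lay below that of the other tags in 6 of 6 libraries, although the exact interval of each single library held the other tags' value. In WT replicate 3, for example, 0 of 7 has an interval up to 41.0%. Tails under 40 nt made up 6 of 20, 2 of 15 and 2 of 7 subunit tags in the WT libraries. In DKO they made up 3 of 31, 0 of 19 and 2 of 9. The other tags had 20.4%, 22.3% and 41.6% under 40 nt in the WT libraries, and 16.6%, 15.5% and 27.8% in DKO. At this limit the subunit share lay below that of the other tags in 5 of 6 libraries, with the opposite order in WT replicate 1. The difference between genotypes (DKO minus WT) was -13.3 percentage points for the subunits, with overlap, and -8.11 for the other tags.

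No base was listed as added to the 3′ end of any of the 101 tailed subunit tags. A count of 0 allows a share of up to 2.97%. Among the other tags a U was present on 2.30% to 3.61% per library, so a difference from them was not detectable at this depth.

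The genes lie on 9 chromosomes, and the 100 bases before the start of transcription are shown for 4 of them because they set the 2 subunits with tails under 30 nt beside the 2 with 0 tags. The RefSeq promoter table (build GRCm38.p6) matched 8 of the 10 genes; Cox4i1 and Cox6c were not matched. Capitals mark the letters CCGGAA, or TTCCGG on the other strand, the core bound by ETS factors such as GABP, which is known to act at promoters of respiratory chain genes.
Cox6a1, chr5:115348959-115349058, minus strand: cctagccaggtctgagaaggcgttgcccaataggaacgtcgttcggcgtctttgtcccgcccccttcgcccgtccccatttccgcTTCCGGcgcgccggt
Cox6b1, chr7:30626115-30626214, minus strand: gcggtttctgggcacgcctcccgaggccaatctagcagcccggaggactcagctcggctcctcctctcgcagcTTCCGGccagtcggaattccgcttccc
Cox5b, chr1:36691387-36691486, plus strand: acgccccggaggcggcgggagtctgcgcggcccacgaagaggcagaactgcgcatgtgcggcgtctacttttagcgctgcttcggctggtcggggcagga
Cox7c, chr13:86046796-86046895, minus strand: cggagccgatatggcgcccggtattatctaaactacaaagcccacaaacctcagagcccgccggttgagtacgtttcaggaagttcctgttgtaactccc

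CCGGAA was found, on either strand, in 4 of the 8 promoters of 300 bases (250 before and 50 after the start), those of Cox6a1, Cox6b1, Cox7a2 and Cox8a. It was found in 14.9% of all 32851 promoters in the table. Cox7a2 and Cox8a had no tail under 30 nt, and Cox5a and Cox7b had tags but not these letters. The 4 promoters shown thus do not stand for all 8, and a link of the letters to tags or tails was not tested. The letters GCGCATGC, or GCATGCGC, of the NRF-1 core were found in 1 of 8, that of Cox6a1, and in 2.71% of all. A match is a description of the letters, and no match says nothing about a factor's binding. The files give no positions for tags, so where the mRNAs ended was not analysed here. In the same build Cox6c, the subunit with the most tags, lies at chr15:35931976-35938246, Cox7a2 at chr9:79755241-79771422 and Cox4i1 at chr8:120668225-120674209.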

How the data were processed

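Poly(A) tails were measured by mTAIL-seq in 3 WT and 3 DKO libraries. The authors deposited whole-number counts of reads per tag, with tail lengths in nt and links from tags to gene IDs. GSNAP, bedtools and the builds mm10 and GRCm38 are named in the submitters' processing notes, with no role given. No tail caller or annotation release is named in the sources used here.

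Tags were joined to IDs, a tail of 5 nt or more counted as tailed, and the length after mapping was used. Recomputed tag counts and geometric means equalled the deposited values for all subunits, to within rounding. The test on tag counts was edgeR 4.0.16 (TMM, quasi-likelihood), with DESeq2 1.42.0 as an alternative, and that on log2 mean tail lengths was limma 3.58.1 (lmFit, eBayes), in R 4.3.3 and over all IDs, with Benjamini-Hochberg adjustment at 0.05. The edgeR standard error is the log2 change over the square root of F. Python 3.11.15, pandas 2.3.3 and SciPy 1.17.1 gave the other values. Both fits were also run on simulated data with set changes, as a check of the code, and no result here rests on that check. The rule for named genes took all 10 subunits; these and the lists were chosen with earlier results of these data known.

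Same-numbered libraries deviated together from their group means (r of 0.14, 0.21 and 0.38 for tag counts over 170 IDs, and 0.25, 0.40 and 0.52 for tail length over 44 IDs), which meets the rule for pairing of r over 0.1 in every pair. Numbers 1 and 2 were not told apart: WT 1 with DKO 2 gave 0.29 and WT 2 with DKO 1 gave 0.38 for tag counts, and 0.33 and 0.11 for tail length. Number 3 correlated below 0 with both (-0.24 to -0.52). Deviations from the mean of 3 libraries sum to 0, so these values follow in part from the positive ones and are no separate observation. The main fits held no term for the replicate number (a replicate block), as planned. With the block, the unfiltered edgeR fit gave Cox6c a log2 change of 1.11 (adjusted p = 0.99). The blocked limma fit of tail length gave Cox6c 0.27 (SE 0.29, adjusted p = 0.91) and Cox7a2 -0.26 (SE 0.18, adjusted p = 0.88). The files do not pair gene IDs with names: 0 of the 49997 rows of the RefSeq table (GRCm38.p6) hold an Ensembl ID. Other respiratory chain genes, cell type markers, Btg1 and Btg2 were therefore not analysed here.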

Additional observations from a re-analysis of the deposited data

How the results depend on the processing

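No subunit was called for tag count or tail length under any alternative in which at least 1 was tested, the replicate block included (0 of 8 with no filter and 0 of 2 at a minimum of 2 tags), and the block changed no other subunit call. Over all IDs, which were called 0 times in the full set, the filtered count test called 3 of 170 with the block, 30 of 241 with numbers 1 and 2 only and 8 of 241 without WT replicate 3, and the unfiltered one 8 of 6078 with numbers 1 and 2 only. Minimums of 5, 10 and 20 tags held no subunit for tail length, nor did 3, 5 and 10 tags for pairs, so those comparisons were not run. Equal weights at a minimum of 5 tags could not be had, and U in tails under 30 nt was not run because 3 libraries had no such tail. The minimum of 2 tags, the combinations of no filter with another alternative, the length before mapping, tags of at least 2 reads and the set without Cox6c were chosen after seeing the data. When 1 library was left out, the differences (DKO minus WT) were 3.35 to 20.1 nt in pooled mean tail length, -3.89 to -0.35 percentage points in tails under 30 nt, -0.00123 to 0.0734 in the share of tags, and 0 for an added U. The log2 change of the Cox6c tag count was 0.78 to 1.36, and that of its tail length -0.14 to 0.58. The latter was -0.14 without WT replicate 3 and -0.061 with numbers 1 and 2 only; the cause was not tested. A limit of 40 nt in place of 30 nt moved the difference in short tails from -1.74 to -13.3 percentage points, by counting more tails. Depth limits each value: 101 tailed tags over 10 genes and 6 libraries.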
